A study of Mus musculus with 60 samples.

Results

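Chemokines are small secreted proteins that direct the movement of leukocytes, and their receptors are membrane proteins on the cells that respond. The genes described here were those whose symbol names a CC, CXC, XC or CX3C chemokine or a receptor of one, and they were found by matching the RefSeq accession of each array probe to a gene symbol. The rule held 66 genes of the gene table, and 58 of them had a probe among the 20018 genes named in this way. The 8 without a probe were Cxcl11, Ccl21c, Ccl21d, Ccl27b and the pseudogenes Ccl16-ps, Ccl19-ps1, Ccl19-ps2 and Ccl19-ps3. The 58 genes had 69 probes, and the brightest probe stood for each of the 9 genes with more than 1.

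The study asked how lung, liver and forestomach of mice respond to benzo(ghi)perylene (BghiP), a polycyclic aromatic hydrocarbon. Male mice of the transgenic Muta Mouse strain, which carries a reporter for mutation assays, were about 10 weeks old and received BghiP in olive oil by gavage every day for 28 days. The daily dose per kg of body weight was 0 in group D0 (olive oil alone, the vehicle), 6.25 mg in D1, 12.5 mg in D2 and 25 mg in D3, with 5 mice per group, and tissues were taken 72 hours after the last dose. Each of the 20 mice gave 1 array per tissue, 60 arrays in all, on which the tissue RNA (Cy5 dye) was hybridised beside a reference RNA pooled from 11 mouse cell lines (Cy3 dye). All mice carried the same transgene, the lung, liver and forestomach RNA came from slices of whole tissue taken at random.

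Chemokines fall into families by the spacing of their first cysteines. Ligands such as Cxcl12 and Ccl21 are made constantly and set the homing of cells to lymphoid tissue, mucosa and marrow, whereas Ccl2, Cxcl1, Cxcl9 and Cxcl10 are induced by inflammation. Most receptors signal through G proteins, and the atypical receptors (Ackr) bind chemokines and remove or relocate them without such signalling. A value below is the log2 ratio of tissue RNA to reference RNA for 1 mouse, so that 1 unit is a doubling. The ratio depends on how much of a gene the reference cell lines express, so values were compared between tissues and doses for 1 gene and not between genes. In whole tissue, more RNA per cell and more cells of a type cannot be told apart.

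More chemokine genes were tested in lung than in liver or forestomach, as were more probes of all kinds. A gene was tested in a tissue if its signal was well above background on at least 5 of the 20 arrays. By this filter 46 of the 58 genes were tested in lung, 30 in liver and 30 in forestomach. Of all 55681 probes it kept 31022 in lung, 25893 in liver and 25070 in forestomach. Of the chemokine genes, 22 were tested in every tissue and 10 in lung alone. The 10 genes tested in no tissue were Ccl1, Ccl20, Ccl22, Ccl26, Ccl28, Cxcl2, Cxcl3, Ccr1, Ccr4 and Xcr1, and for them no level is given. Ccl28, a mucosal ligand of Ccr10, was well above background on none of the 60 arrays. By role, the 48 tested genes were 17 of 22 CC ligands, 10 of 12 CXC ligands, both of the XC and CX3C ligands, 8 of 10 CC receptors, all 6 CXC receptors, 1 of 2 XC and CX3C receptors and all 4 atypical receptors.

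Sequence upstream of the start site is shown for 3 ligands that were higher in liver than in lung in vehicle mice, because they are the ligands of that group whose promoters matched 1 of the 2 motifs searched, a kappa B motif bound by NF-kappa B and an interferon response element. Each run is the 250 bases before the start in the RefSeq promoter table for build GRCm38.p6, read 5′ to 3′ on the gene's strand, with the matched motif in capitals. Cxcl1 (chr5:90890995-90891244, plus strand) held the kappa B motif in both orientations, Ccl9 (chr11:83578637-83578886, minus strand) held it once, and Cxcl10 (chr5:92348890-92349139, minus strand) held the interferon response element.
Cxcl1: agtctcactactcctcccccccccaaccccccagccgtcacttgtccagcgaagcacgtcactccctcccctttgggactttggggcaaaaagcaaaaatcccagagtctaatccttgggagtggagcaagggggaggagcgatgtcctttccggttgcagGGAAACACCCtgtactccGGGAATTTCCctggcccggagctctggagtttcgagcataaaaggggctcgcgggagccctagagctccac
Ccl9: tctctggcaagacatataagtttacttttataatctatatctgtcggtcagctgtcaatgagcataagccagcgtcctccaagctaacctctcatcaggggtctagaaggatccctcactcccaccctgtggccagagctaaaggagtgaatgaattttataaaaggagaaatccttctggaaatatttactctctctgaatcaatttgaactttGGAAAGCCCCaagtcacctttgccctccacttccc
Cxcl10: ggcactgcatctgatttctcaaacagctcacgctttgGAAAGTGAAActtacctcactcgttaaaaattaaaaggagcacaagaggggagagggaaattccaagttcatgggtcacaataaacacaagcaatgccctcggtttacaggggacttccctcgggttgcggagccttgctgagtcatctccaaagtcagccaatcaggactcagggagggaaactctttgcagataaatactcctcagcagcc
The kappa B motif was searched on both strands as GGG, any 2 bases and then TTTCC, and it was found in 6 of the 44 chemokine and receptor genes with a promoter in the table (13.6%), namely Ccl9, Ccl20, Cxcl1, Cxcl2, Cxcl3 and Ccr3, against 1.40% of 27025 promoters. The interferon response element was searched on both strands as GAAA, any 2 bases and then GAAA, and it was found in Ccl19, Cxcl10 and Cxcl14, 3 of 44 (6.82%) against 3.04% of all promoters. A match describes the letters in this window and is not evidence that a factor was bound.

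The labelled tissues carried their own markers. The mean log2 ratio of Sftpc, Sftpb, Scgb1a1 and Ager was 6.84 to 7.60 in the 5 vehicle lungs, that of Alb, Apoa1, Ttr and Serpina1c was 7.46 to 8.31 in the vehicle livers, and that of Krt4, Krt13, Krt6a and Sprr3 was 3.62 to 5.66 in the vehicle forestomachs. Markers of other tissues were high on several arrays, and 3 vehicle arrays are called mixed here. The lung of mouse 1 read 6.90 for the skeletal muscle gene Acta1 and 6.58 for the squamous keratin Krt4, the forestomach of mouse 5 read 6.26 for the fat gene Adipoq, and the forestomach of mouse 2 read 7.57 for Sftpc and 5.85 for Sftpb. Some of the results that rest on these 3 mixed arrays are given with and without them, a check chosen after the data were seen. The others are given with these arrays alone. Genes of the glandular stomach, described with Cxcl17, were also high in the vehicle forestomachs of mice 2 and 3 (list means of 6.77 and 6.05), and mouse 3 was kept in those fits. The mean of the hepatocyte genes was 0.99 to 3.51 in the vehicle forestomachs (median 3.02) and up to 5.63 in the dosed ones, against 0.25 to 0.87 in the vehicle lungs. No array was left out for these genes, and their part in the forestomach values was not tested.

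Lung and liver of vehicle mice differed in most of these genes. A difference was called at a limma adjusted p of 0.05 or less, taken over all probes, and at least 1.5-fold. By this rule 38 of 48 genes differed, 28 higher in lung and 10 higher in liver, where 44.4% of all 33255 probes differed (25.4% higher in lung, 19.0% higher in liver). The median difference, lung minus liver, was 0.80 over the 48 genes and 0.06 over all probes. All 6 CXC receptors, 9 of 17 CC ligands, 4 of 10 CXC ligands, 4 of 8 CC receptors, 3 of 4 atypical receptors, Cx3cl1 and Cx3cr1 were higher in lung, and 4 CC ligands, 3 CXC ligands, 2 CC receptors and 1 atypical receptor were higher in liver. A gene could enter this comparison through 1 tissue alone, and 4 of the 6 CXC receptors were not tested in liver. Among the 28 genes tested in both lung and liver 23 differed, 15 higher in lung and 8 higher in liver, with a median of 0.74, where 48.4% of probes tested in both differed. By role, 5 of 11 CC ligands, 2 of 6 CXC ligands, 2 of 4 CC receptors, both of the 2 CXC receptors and 2 of 3 atypical receptors in this set were higher in lung. Without the 3 mixed arrays, 38 genes differed. The liver arrays lay on 3 slides of their own, so that liver and slide cannot be told apart.

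Between lung and forestomach 28 of 48 genes differed, 22 higher in lung and 6 higher in forestomach, where 33.3% of all probes differed (18.8% and 14.5%). Among the 30 genes tested in both tissues 19 differed (13 and 6), where 38.2% of probes tested in both did. The count over all 48 was 29 without the mixed arrays, and it was 32 with slide as a block, where 34.1% of all probes differed. The median difference, lung minus forestomach, was 0.70 over the 48 genes and 0.02 over all probes. Between liver and forestomach 23 genes differed, 9 higher in liver and 14 higher in forestomach, where 39.2% of all probes differed (18.2% and 21.0%). Among the 22 genes tested in both of these tissues 13 differed (6 and 7), where 45.9% of probes tested in both did. With the scanner's processed signals in place of the raw medians, 28 genes differed and the split was 14 and 14.

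Highest in lung against both other tissues were 20 genes, where 13.2% of all probes were. Highest in liver were 5 genes (13.3% of probes), and highest in forestomach were 3 (8.28% of probes). Of the 20 genes 6 were tested in lung alone. Among the 22 genes tested in every tissue, 9 were highest in lung, 3 in liver and 1 in forestomach, where 13.5%, 15.1% and 8.45% of the probes tested in every tissue were. The lowest tissue was liver for 12 genes, forestomach for 4 (Ackr2, Ccl19, Cxcl12 and Cxcl16) and lung for 3 (Ackr1, Ccl24 and Ccr8). For 6 genes no pair of tissues differed by the rule. Of these genes 47 are plotted mouse by mouse for the vehicle groups.

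**Figure D1:**
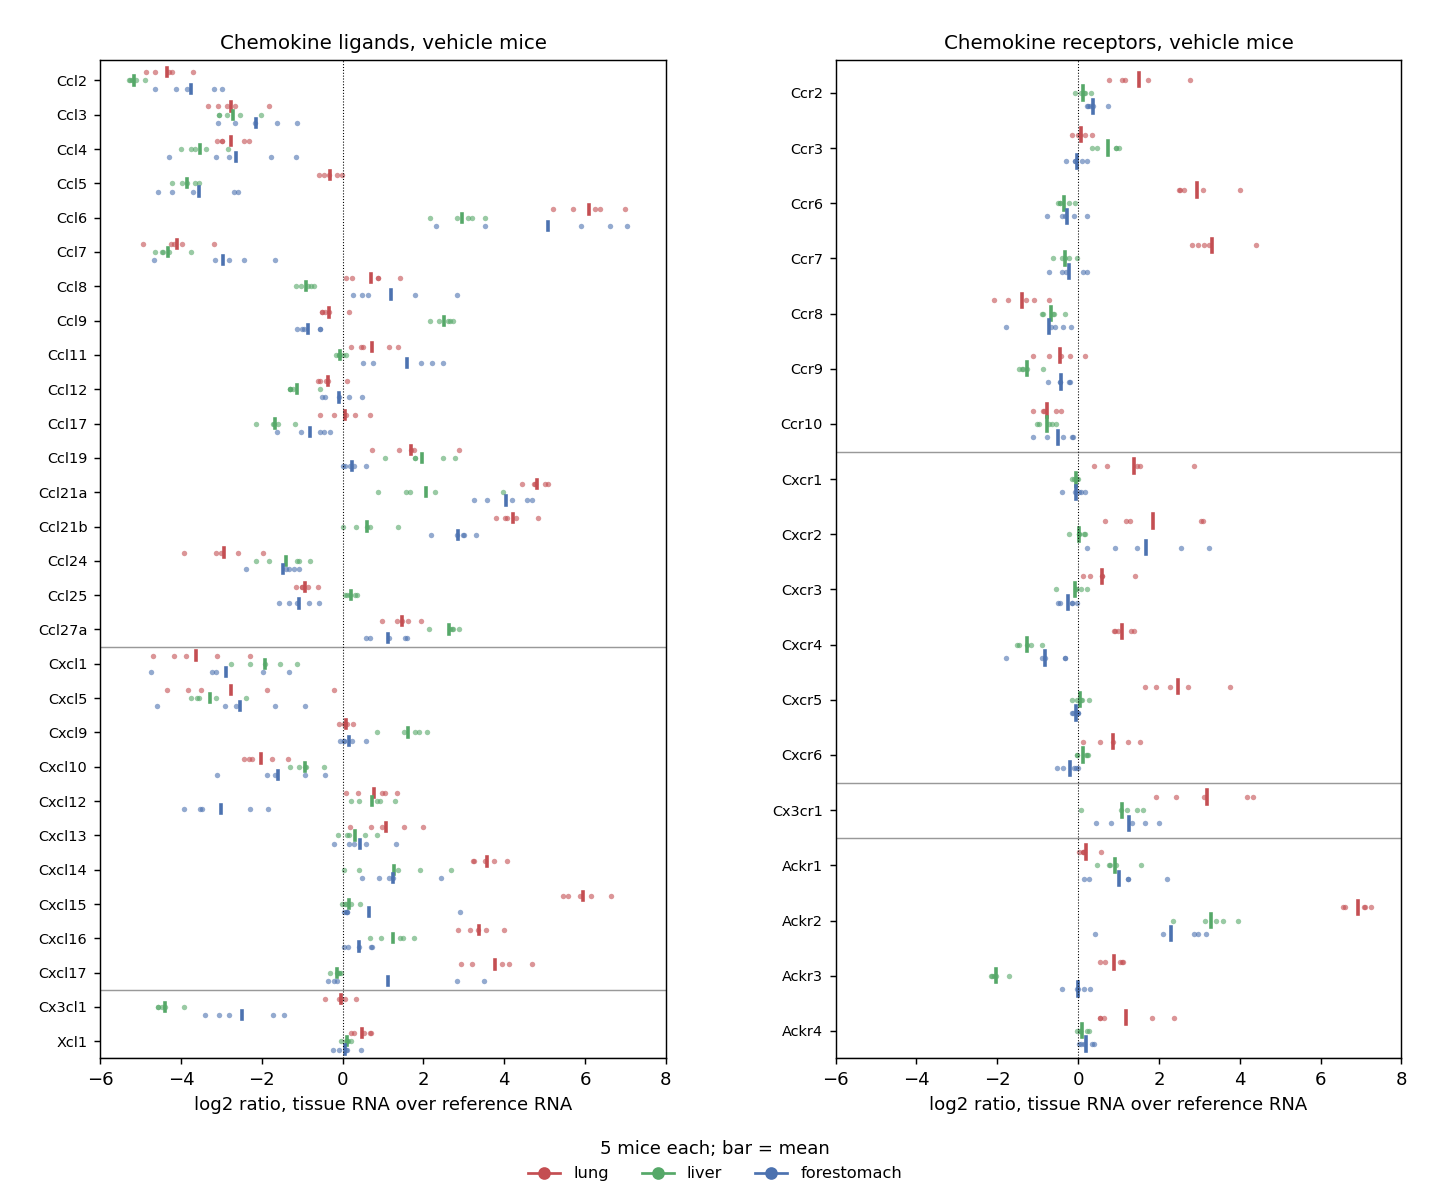
Log2 ratio of tissue RNA to reference RNA (horizontal axis) for 47 tested genes in vehicle mice, ligands on the left and receptors on the right, with 1 point per mouse, 5 mice per tissue, and a bar at the mean. The 5 lungs of Cxcl15 sit between 5.45 and 6.64, all above its liver and forestomach points, and the forestomach point of Cxcl15 at 2.91 is mouse 2.

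Cxcl15, also called lungkine, is a CXC chemokine of airway epithelium and had the widest lead of the lung. It read 5.59, 5.87, 5.45, 6.15 and 6.64 in the 5 vehicle lungs and -0.01 to 0.44 in the livers, where it was not well above background on any array. The forestomachs read 0.03 to 0.11 apart from mouse 2, which read 2.91. All lungs lay above all other tissues. Lung exceeded liver by 5.78 ± 0.28 (SE, n = 5 mice per tissue, adjusted p = 3.18e-25) and forestomach by 5.29 ± 0.28 (adjusted p = 1.77e-22), and the latter was 5.95 without the mixed arrays. On the tissue channel alone lung was at least 134-fold higher than liver. This bound sets the mean lung signal against the dimmest signals that were well above background in liver, and it is open to dye bias, as are the other bounds given. At this probe the reference channel was well above background on 20 of 20 lung arrays, 0 of 20 liver arrays and 1 of 20 forestomach arrays, although the reference RNA was the same, so that the ratios of the tissues rest on unequal reference signals. The vehicle mean of the reference channel differed by more than 1 log2 unit between tissues at 3 tested genes, Ccl21a (3.64), Cxcl15 (1.79) and Cxcl14 (1.26).

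Forestomach mouse 2 was the 1 forestomach array of 20 with Cxcl15 well above background, and the other 19 read -0.20 to 0.30. The same array read 3.26 for Ager, against -0.53 to 0.04 in the other 19, and 5.85 for Sftpb, against at most 1.32. Sftpc was 7.57 there and at most 4.35 elsewhere. Cxcl15 thus stood with the lung markers on this array, and their part in its value was not tested.

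Cxcl17, a mucosal CXC-type chemokine that attracts macrophages and dendritic cells, read 3.95, 3.21, 2.93, 4.68 and 4.13 in the vehicle lungs and -0.32 to -0.04 in the livers, none of which was above background. Lung exceeded liver by 3.91 ± 0.82 (adjusted p = 4.51e-05), at least 13.4-fold on the tissue channel. The 5 vehicle forestomachs split, with 3.49 and 2.83 in mice 2 and 3 and -0.13, -0.22 and -0.37 in the others. Lung exceeded forestomach by 2.66 ± 0.82 (adjusted p = 0.00565), a call that was lost without mouse 4 (2.10, adjusted p = 0.0619). The difference was 2.91 without the mixed arrays.

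The split of Cxcl17 ran through all forestomach groups and moved with genes of the glandular stomach, the part next to the forestomach. Cxcl17 was well above background on 12 of the 20 forestomach arrays, where it read 1.64 to 5.93, and not on the other 8, where it read at most 0.45. The mean of 9 glandular genes (Atp4a and Atp4b of the acid pump, Cblif, Pgc, Gkn1, Gkn2, Muc5ac, Tff1 and Tff2), a list added after the data were seen, was at least 4.44 on those 12 arrays and at most 2.32 on the 8. The arrays with Cxcl17 above background were 2 of 5 at D0, 4 at D1, 3 at D2 and 3 at D3. At D1 Cxcl17 was 2.60 ± 1.26 above D0 (adjusted p = 0.537 by limma), with a median of the 9 genes of 7.27 against 1.01, and the part of glandular tissue in this value was not tested.

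**Figure D2:**
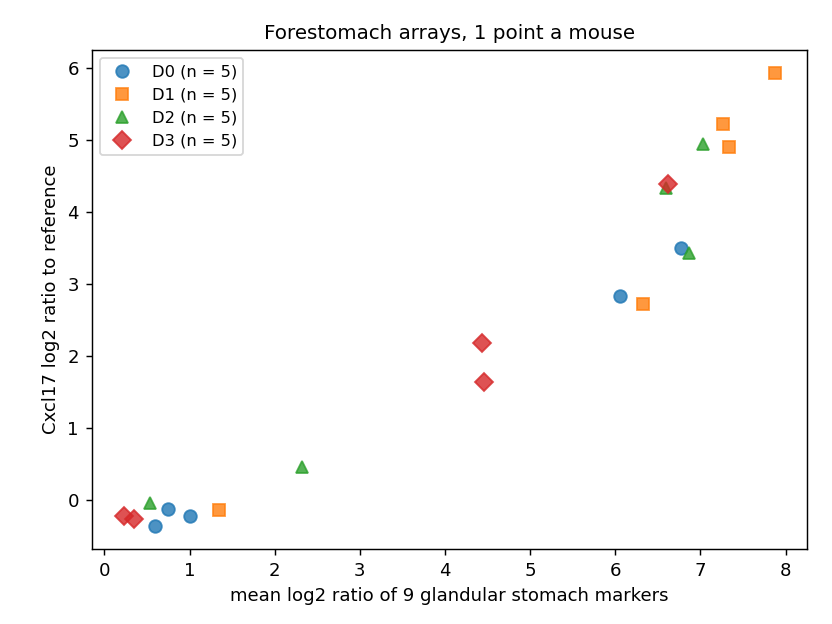
Log2 ratio of Cxcl17 (vertical axis) against the mean log2 ratio of 9 glandular stomach genes (horizontal axis) in the 20 forestomach arrays, 1 point per mouse, with the symbol giving the dose group (5 mice each). The 12 arrays with Cxcl17 at 1.64 or more all have a marker mean of at least 4.44, and the other 8 lie at or under 2.32.

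Ccr7, Ccr6 and Cxcr5 were higher in lung than in both other tissues. Ccr7, which guides T cells and dendritic cells along Ccl19 and Ccl21, read 3.12, 2.83, 3.25, 2.96 and 4.39 in vehicle lungs, -0.63 to -0.03 in livers and -0.73 to 0.23 in forestomachs. Lung exceeded liver by 3.63 ± 0.20 (adjusted p = 1.89e-22) and forestomach by 3.53 ± 0.20 (adjusted p = 5.98e-21), at least 9.56-fold over forestomach on the tissue channel. Ccr6, the receptor of Ccl20, read 2.51, 3.08, 2.50, 2.62 and 4.00 in lungs and was above background in no vehicle liver or forestomach, with differences of 3.28 ± 0.22 and 3.22 ± 0.22 and bounds of at least 6.76-fold and 6.66-fold. Cxcr5, the B cell receptor for Cxcl13, read 2.27, 1.94, 1.65, 2.72 and 3.76 in lungs, and -0.15 to 0.27 in livers and -0.15 to 0.01 in forestomachs, none of them above background. Its bounds were at least 3.69-fold over liver and 3.57-fold over forestomach. In none of these 3 receptors did lungs overlap with another tissue, and mouse 5 was the highest lung in each.

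Means of the lymphocyte lists were higher in lung too. The mean log2 ratio of 6 B cell genes was 0.75 to 2.27 in vehicle lungs, with mouse 5 the highest, against -1.16 to -0.88 in livers and -1.43 to -0.49 in forestomachs. Of the 6 genes, 5 were higher in lung than in liver and 5 than in forestomach, and Cd79a and Blk were among those above background on no vehicle liver array. The mean of 6 T cell genes was 0.50 to 1.23 in lungs, -1.22 to -0.76 in livers and -1.5 to -0.32 in forestomachs, and 4 and 3 of the 6 were higher in lung. Among vehicle lungs mouse 5 was also highest for the T cell, NK cell, neutrophil, macrophage, dendritic cell, mast cell, lung and hepatocyte lists. Mouse 1 was highest for the muscle, keratinocyte, fat, Kupffer cell and squamous epithelium lists. Of all probes 58.6% were well above background on the lung array of mouse 5, against 34.9% to 51.5% in the other vehicle lungs. The part of lymphocyte number in the receptor values was not tested.

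The ligands of Ccr7 and Cxcr5 were measured beside them. Ccl19 read 1.69 on average in lung and 1.98 in liver, which did not differ by the rule (-0.29 ± 0.32, adjusted p = 0.436), and 0.22 in forestomach, where no vehicle array was above background. A second Ccl19 probe put lung 0.38 above forestomach, under the fold of the rule. Ccl21a was 4.43 to 5.09 in lungs, 0.87 to 3.98 in livers and 3.25 to 4.69 in forestomachs, 2.73 ± 0.34 higher in lung than in liver (adjusted p = 4.58e-10). At this probe the reference channel after loess had a log2 mean of 9.30 in lung, 5.66 in liver and 7.47 in forestomach, and the tissue channel 14.11, 7.73 and 11.52, so the ratios again rest on unequal reference signals. With processed signals that difference was 0.35 (adjusted p = 0.218), and the one between liver and forestomach was -0.28 (adjusted p = 0.333) in place of -1.98, so both calls were lost. Ccl21b was 3.80 to 4.84 in lungs, 0.02 to 1.36 in livers and 2.19 to 3.30 in forestomachs. The Ccl21 copies are nearly identical and a probe may bind more than 1 of them, so their values are uncertain one by one. Cxcl13, the ligand of Cxcr5, was 1.07, 0.31 and 0.43 on average in lung, liver and forestomach, with 4, 1 and 1 of 5 vehicle arrays well above background, and no pair of tissues differed by the rule (adjusted p = 0.058, 0.126 and 0.808).

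Among the atypical receptors, Ackr2 clears inflammatory CC chemokines from lymphatic vessels and other sites. It read 6.56, 7.11, 6.60, 7.08 and 7.26 in vehicle lungs, 2.36 to 3.95 in livers and 0.41 to 3.17 in forestomachs, with no overlap of lung and the others. Lung exceeded liver by 3.64 ± 0.40 (adjusted p = 1.65e-11) and forestomach by 4.62 ± 0.40 (adjusted p = 2.62e-14), but the second probe of the gene, which was dim (above background on 9 of 20 lung arrays and on none of the others), showed 0.38 and 0.23 and was not called. Ackr3 takes up Cxcl12, and it was 0.54 to 1.12 in lungs, -2.16 to -1.72 in livers and -0.40 to 0.29 in forestomachs, with all 3 pairs called. Ackr4, which takes up Ccl19, Ccl21 and Ccl25, was above background on all 5 vehicle lung arrays and on none of the vehicle liver or forestomach arrays, at least 1.83-fold and 1.85-fold higher in lung. Ackr1, the Duffy receptor of venules and red cells, went the other way, with 0.19 in lung, 0.90 in liver and 1.01 in forestomach on average, although 1 of 5 vehicle lungs was well above background.

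Cxcl12, the constant ligand of Cxcr4, was set apart by forestomach. It read 0.09 to 1.34 in vehicle lungs, 0.21 to 1.30 in livers and -3.93, -1.84, -2.28, -3.49 and -3.53 in forestomachs. Lung and liver differed by 0.03 ± 0.32 and exceeded forestomach by 3.78 ± 0.32 and 3.75 ± 0.32 (adjusted p = 1.44e-14 and 5.47e-15). A second Cxcl12 probe, matched to the transcript NM_021704 in place of NM_001012477, gave -3.0 in lung, -0.74 in liver and -2.10 in forestomach, so that there liver exceeded lung by 2.27 and forestomach exceeded lung by 0.91. The probes gave different orders of the tissues, and the reason was not tested. Its receptor Cxcr4 read 0.92, 0.99, 0.88, 1.31 and 1.39 in lungs and was above background in no liver or forestomach of the vehicle mice, at least 4.38-fold and 3.39-fold higher in lung.

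Cx3cl1 and Cx3cr1 are the single ligand and receptor of the CX3C family, and Cx3cr1 marks monocytes and some macrophages. Cx3cl1 read 0.07, -0.43, -0.04, -0.10 and 0.34 in vehicle lungs, -4.57 to -3.92 in livers and -3.40 to -1.46 in forestomachs. The order was lung, forestomach and liver from high to low, with no overlap of neighbours. Lung exceeded liver by 4.35 ± 0.27 and forestomach by 2.46 ± 0.27 (adjusted p = 1.05e-20 and 3.18e-11). Cx3cr1 ranged from 1.92 to 4.33 in lungs, 0.07 to 1.6 in livers and 0.45 to 1.99 in forestomachs, 2.11 ± 0.46 and 1.94 ± 0.46 higher in lung. A dimmer second Cx3cr1 probe, above background on 17 lung, 0 liver and 4 forestomach arrays, put lung 0.58 above liver, which was not called, and 0.65 above forestomach, which was. Cxcl16 and its receptor Cxcr6 were highest in lung too, Cxcl16 at 2.85 to 3.99 against 0.67 to 1.77 in liver and 0.04 to 0.73 in forestomach, and Cxcr6 at means of 0.85, 0.12 and -0.21. The lead of Cxcr6 over liver, 0.73 ± 0.19, was under 1.5-fold without mouse 5 (0.53).

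Inflammatory ligands gave a mixed picture. Ccl5, made by T and NK cells, read -0.15, -0.59, -0.34, -0.45 and -0.02 in vehicle lungs, -4.23 to -3.55 in livers and -4.56 to -2.60 in forestomachs, with lung 3.54 ± 0.32 above liver and 3.25 ± 0.32 above forestomach. Ccr2, the receptor of Ccl2 on monocytes, was highest in lung (1.5 on average). It was 1.38 ± 0.29 above liver and 1.12 ± 0.29 above forestomach, each with 1 of 5 vehicle arrays well above background. The ratio of Ccl2 itself was highest in forestomach. Cxcr2, the neutrophil receptor of Cxcl1 and Cxcl5, ranged from 0.66 to 3.09 in lungs and 0.23 to 3.23 in forestomachs and was above background in no vehicle liver, at least 2.46-fold lower in liver than in lung. Neutrophil genes moved in the same way between lung and liver, with 4 of 5 higher in lung. Their mean was 1.5 to 3.27 in vehicle lungs, -0.08 to 0.16 in livers and 0.52 to 0.98 in forestomachs, with Retnlg and Mmp8 above background on no vehicle liver or forestomach array. Between lung and forestomach Cxcr2 did not differ by the rule (means of 1.85 and 1.67), whereas the neutrophil mean was higher in lung. The part of the neutrophil genes in the Cxcr2 values was not tested.

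Liver led in 5 genes. Ccl9, a CC chemokine of macrophages and other myeloid cells, read 2.66, 2.17, 2.62, 2.73 and 2.39 in vehicle livers, -0.51 to 0.15 in lungs and -1.14 to -0.57 in forestomachs. Liver exceeded lung by 2.84 ± 0.17 and forestomach by 3.37 ± 0.17 (adjusted p = 1.10e-20 and 1.20e-23). Cxcl9, an interferon-induced ligand of Cxcr3, read 1.80, 0.85, 2.08, 1.88 and 1.51 in livers and was above background in no vehicle lung, at least 2.29-fold lower there. A second Cxcl9 probe, above background on 18 of 20 liver arrays, gave -0.76 for lung minus liver, which was called, and 0.21 for liver minus forestomach, which was not. Its neighbour Cxcl10 read -1.29 to -0.47 in livers and -2.43 to -1.35 in lungs, 1.08 ± 0.31 higher in liver (adjusted p = 0.00183), yet their receptor Cxcr3 was higher in lung than in liver by 0.67 ± 0.18. Cxcl1 was also higher in liver than in lung, by 1.70 ± 0.51 (adjusted p = 0.00303), with overlap of the single mice.

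The other liver-led genes were homing ligands of epithelia and an eosinophil receptor. Ccl25, known for the gut and thymus, read 0.07 to 0.36 in vehicle livers, -1.16 to -0.61 in lungs and -1.58 to -0.59 in forestomachs, with liver 1.13 ± 0.17 and 1.30 ± 0.17 higher. A dim second probe, above background on 3 lung, 7 liver and 1 forestomach arrays, gave -0.27 for lung minus liver and 0.25 for liver minus forestomach, neither called. Its receptor Ccr9 was lowest in liver, at -1.27 on average against -0.45 and -0.41. Ccl27a, a skin ligand, was 2.14 to 2.89 in livers, 0.98 to 1.94 in lungs and 0.59 to 1.59 in forestomachs, and a second probe gave the same order, but another probe read 1.12, 1.06 and 0.85 with no difference called. Its receptor Ccr10 was well above background on 0 of 20 liver and 3 of 20 forestomach arrays, so no difference is given. Ccr3 was 0.34 to 1.00 in livers and -0.15 to 0.35 in lungs, and its lead of 0.66 ± 0.15 was under 1.5-fold without mouse 3 (0.53). It was well above background on 18 of 20 liver, 3 of 20 lung and 0 of 20 forestomach arrays, so it was tested through liver alone, and on the tissue channel liver was at least 1.82-fold above forestomach. Genes of Kupffer cells, the resident macrophages of liver, had a mean of 4.23 to 4.59 in vehicle livers, 0.79 to 1.28 in lungs and 0.03 to 0.82 in forestomachs. Of these 5 genes 4 were higher in liver than in lung, and Marco was higher in lung. Their part in the values of these genes was not tested.

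All 3 genes led by forestomach, Ccl2, Ccl7 and Ccl11, are neighbours in 1 cluster on chromosome 11 that also holds Ccl12, Ccl8 and Ccl1. Ccl7, a monocyte attractant, read -3.16, -2.44, -1.67, -2.82 and -4.66 in vehicle forestomachs, -4.93 to -3.17 in lungs and -4.63 to -3.75 in livers. Forestomach exceeded lung by 1.14 ± 0.35 (adjusted p = 0.00486), which was 0.88 and no longer called with processed signals (adjusted p = 0.0597). Ccl11, which attracts eosinophils, read 1.95, 0.75, 0.51, 2.21 and 2.49 in forestomachs, 0.21 to 1.36 in lungs and -0.16 to 0.08 in livers, with forestomach 0.84 ± 0.36 above lung (adjusted p = 0.0423). Ccl2 was -4.63 to -2.98 in forestomachs, -4.86 to -3.71 in lungs and -5.29 to -4.89 in livers, and its lead of 0.59 ± 0.23 over lung passed narrowly (adjusted p = 0.029). The tissue channel of Ccl2 alone was not higher in forestomach, with a log2 mean of 8.61 against 8.66 in lung. Its reference channel was 12.37 against 13.00. For Ccl7 the tissue channel was 7.64 in forestomach and 7.18 in lung, and the reference channel 10.59 and 11.27. These leads thus rest in part on unequal reference signals. The leads of Ccl2 and Ccl11 over lung each lost their call without any 1 of 3 mice (2, 3 or 4 for Ccl2, with 0.46 to 0.56, and 1, 4 or 5 for Ccl11, with 0.62 to 0.91). Ccl7 was well above background on 2, Ccl11 on 3 and Ccl2 on 4 of the 5 vehicle forestomach arrays. Of the 5 tested genes of the cluster, Ccl2, Ccl11, Ccl12 and Ccl8 were lower in liver than in both other tissues, and Ccl7 than in forestomach. In liver Ccl11 and Ccl12 were well above background on 0 of 20 arrays, and Ccl7 and Ccl8 on 1 of 20.

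Other neighbouring genes had different leading tissues in some clusters and the same in others. In this description neighbours start within 500000 bases of each other in the gene table. The other chromosome 11 cluster held Ccl5, led by lung, beside Ccl9, led by liver, and Ccl6, a myeloid chemokine that was 5.21 to 6.98 in vehicle lungs and 2.16 to 3.52 in livers. On chromosome 5, Cxcl15 was led by lung, whereas its neighbour Cxcl1 was higher in liver than in lung and Cxcl5 was well above background on 0 of 20 liver and 4 of 20 forestomach arrays. On chromosome 9, the receptors Cxcr6 and Ccr2 were led by lung and Ccr3, between them, by liver. Cx3cl1 and Ccl17 on chromosome 8 were both led by lung.

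Variation between mice of a dose was larger for these genes than for most probes. The median standard deviation within dose groups was 0.41 over tested genes and 0.20 over all probes in lung, 0.29 and 0.19 in liver, and 0.58 and 0.29 in forestomach. In lung it was widest for the neutrophil attractant Cxcl5 (1.17, range -4.87 to -0.22), Cxcr2 (1.08) and Ccl8 (1.06). In liver it was widest for Cxcl14 (0.87), and in forestomach for Cxcl17 (2.15) and Ccl6 (1.5). Ccl9 was among the steadiest, at 0.23 in lung and 0.15 in liver.

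Values of these genes differed between slides. Lung and forestomach arrays of the same mice shared slides, 4 mice to a slide with 1 of each dose. By an F test of slides within doses in limma, added after the data were seen, 32 of 46 genes differed between slides in lung (69.6%, against 56.5% of all probes), 20 of 30 in forestomach (66.7%, against 37.4%) and 11 of 30 in liver (36.7%, against 26.5%). On the slide of mice 3, 8, 13 and 18, forestomach arrays had 11 to 17 of the 58 genes well above background, and on that of mice 5, 10, 15 and 20 they had 33 to 37. Of all probes 21.3% to 27.1% were well above background on the former arrays and 49.4% to 53.3% on the latter. Forestomach Ccl21a, well above background on all 20 arrays, read 3.25, 3.67, 3.74 and 4.09 on the former and 4.56, 4.8, 4.74 and 4.77 on the latter, so that every mouse on the former slide lay below every mouse on the latter. Among the vehicle mice each of these slides held 1 mouse, so mouse and slide cannot be told apart in that group.

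In none of the 3 tissues was any of these genes called after BghiP. In lung 0 of 46 genes were called at D1, D2 or D3 against D0 by limma, where 0% of 31022 probes were called at each dose. The same count was 0 of 30 in liver (0% of 25893 probes) and 0 of 30 in forestomach (0% of 25070 probes) at each dose. A slope on dose called 0 genes in each tissue, where it called 0% of probes in lung and forestomach and 0.239% in liver. Blocking on slide again left counts of 0 (adjusted over all probes by limma), where lung D3 called 0.0677% and liver D3 0.0927% of probes and the slopes of lung and liver called 0.306% and 2.61%.

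Before adjustment, between 1 and 4 genes per tissue and dose had a limma p under 0.05. In lung it was 1, 2 and 2 of 46 at D1, D2 and D3, where 2.22%, 3.40% and 4.81% of all probes had such a p, and in liver it was 1, 4 and 2 of 30 (3.03%, 4.15% and 12.1% of probes). In forestomach it was 1 of 30 at each dose (9.37%, 3.65% and 1.5% of probes). For the slopes it was 2 genes in lung (4.78% of probes), 1 in liver (14.8%) and 1 in forestomach (2.36%). In lung at D3, 33 of 46 differences were positive, against 52.6% of all probes, with a median of 0.08 against 0.01. With slide as a block, the numbers with p under 0.05 at D1, D2 and D3 were 5, 10 and 11 of 46 in lung (9.37%, 12.2% and 15.6% of probes), 1, 4 and 3 of 30 in liver (4.24%, 6.84% and 17.9%) and 7, 7 and 4 of 30 in forestomach (18.1%, 9.43% and 6.41%). For the slopes they were 9 in lung (14.3% of probes), 2 in liver (20.6%) and 6 in forestomach (8.28%).

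The size of change that remains possible depended, in lung and forestomach, on whether slide was in the fit. Without it, at D3 the 95% interval of the difference from D0 lay within 1 log2 unit of 0 for 35 of 46 genes in lung and 25 of 30 in liver, but for 15 of 30 in forestomach. Blocking on slide gave 41 of 46, 25 of 30 and 25 of 30. Without the block, the widest intervals in forestomach were those of the genes that varied most between mice. The D3 differences are plotted with their intervals from the fit without slide.

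**Figure D3:**
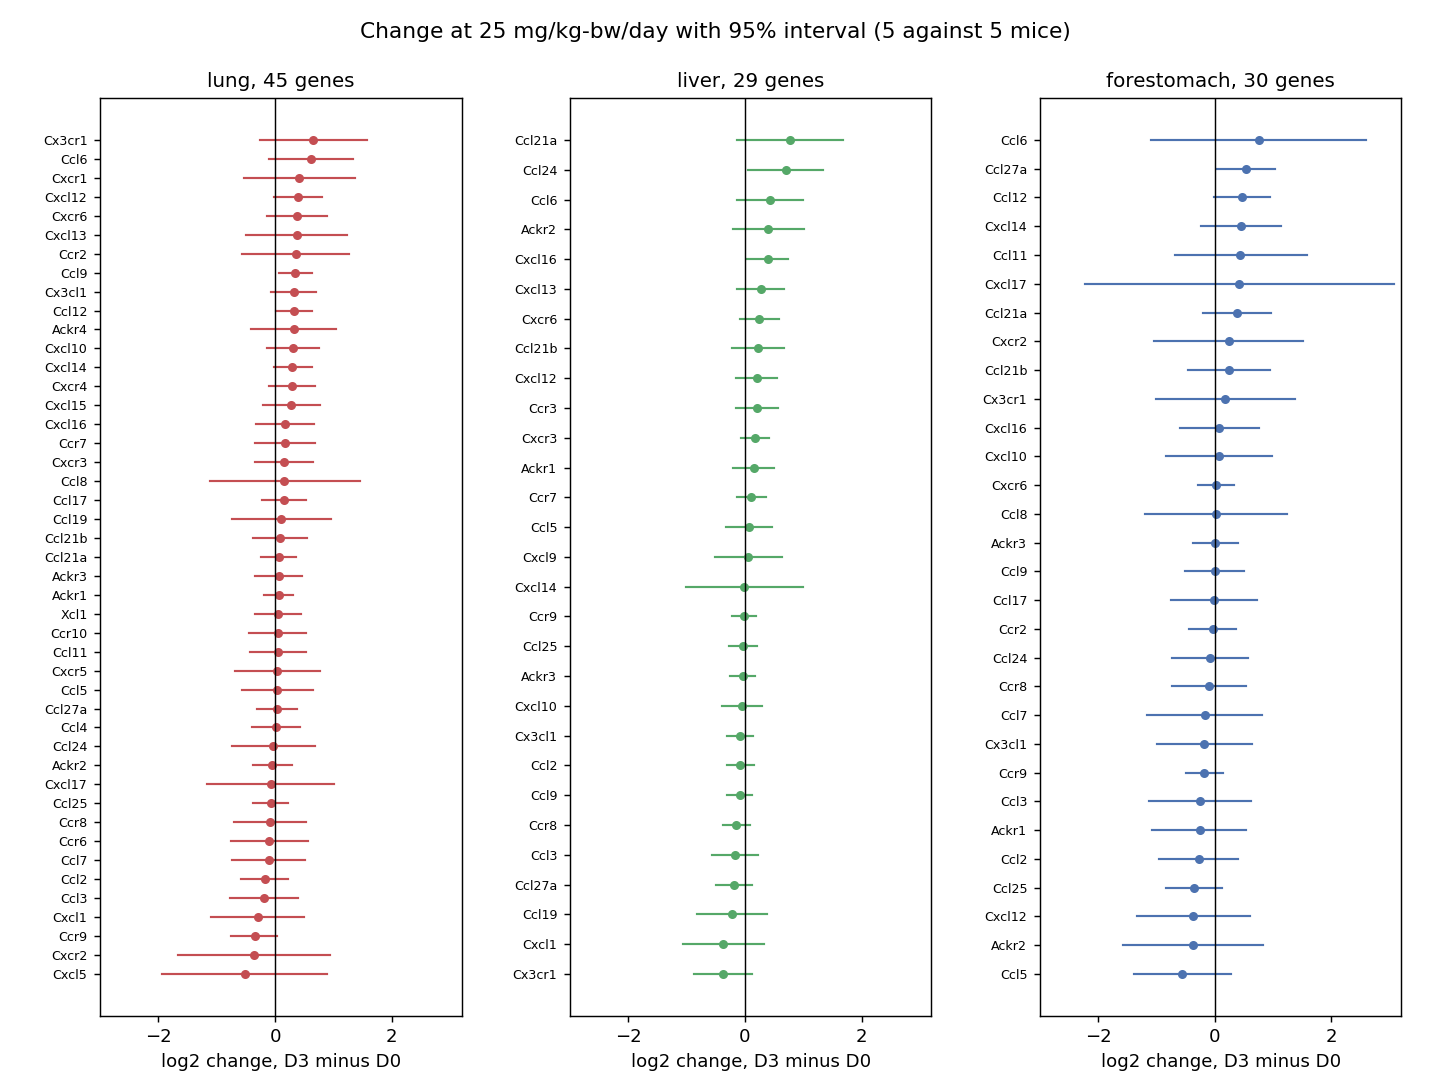
Log2 change at D3 (25 mg/kg-bw/day) from D0 (horizontal axis) for 45 genes tested in lung, 29 in liver and 30 in forestomach, with points for the difference of 5 against 5 mice and lines for its 95% interval in the fit without slide. Most lines cross 0, and the lines are longest in forestomach, where Cxcl17 and Ccl6 are among the widest.

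Ccl12, a monocyte attractant close to Ccl2, had low p-values in both lung and forestomach. In lung it read -0.62, -0.37, -0.40, 0.11 and -0.57 at D0 and 0.13, -0.14, -0.38, 0.22 and -0.07 at D3, a difference of 0.32 ± 0.15 (95% interval 0.01 to 0.63, adjusted p = 0.998 by limma). In forestomach it read 0.15, -0.43, -0.08, 0.49 and -0.52 at D0 and 0.32, -0.15, 0.14, 0.63 and 1.04 at D3, a difference of 0.47 ± 0.23 (95% interval -0.01 to 0.95, adjusted p = 1). The groups overlapped in both tissues. The slope over 25 mg/kg-bw/day was 0.37 ± 0.14 in lung (adjusted p = 0.949) and 0.53 ± 0.22 in forestomach (adjusted p = 0.983). Without the mixed arrays the D3 differences were 0.26 and 0.21, and in forestomach it was 0.31 without mouse 20. In liver Ccl12 was not tested for dose.

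The other genes with the lowest p in lung were Ccl9, Cxcl12 and Cxcl14. Ccl9 read -0.51, 0.15, -0.43, -0.50 and -0.34 at D0 and 0.03, -0.24, -0.21, 0.32 and 0.20 at D3, 0.35 ± 0.14 higher (95% interval 0.06 to 0.64, adjusted p = 0.945), with all 5 D3 mice above the D0 mean. The D3 lung of mouse 20 had a mean of 4.77 for the hepatocyte list, against at most 0.87 in the other 19 lungs, and without this mouse the Ccl9 difference was 0.30. The part of liver RNA in the value of that mouse was not tested. At D2 Ccl9 was 0.44 ± 0.14 higher and Ccl17, a ligand of Ccr4, 0.65 ± 0.18 higher, both with an adjusted p of 1, while Ccl17 at D3 ranged from -0.06 to 0.63. Cxcl12 was 0.40 ± 0.20 higher at D3 (adjusted p = 0.998), which became 0.23 without mouse 1, and Cxcl14 was 0.30 ± 0.16 higher (adjusted p = 0.998), which became 0.22 without mouse 1. A second Cxcl12 probe gave 0.14 at D3.

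Ccl6 came closest to a call once slides were taken into account. It read 5.71, 6.24, 5.21, 6.36 and 6.98 in D0 lungs and 6.38, 6.72, 5.99, 7.49 and 7.00 in D3 lungs, 0.62 ± 0.34 higher (95% interval -0.10 to 1.33, adjusted p = 0.998). With slide as a block, which sets each D3 mouse against the D0 mouse of its slide, the SE was 0.14, the 95% interval 0.32 to 0.91 and the limma adjusted p 0.0542. Each D3 lung was above the D0 lung on its slide. Cx3cr1 in the same fit had an adjusted p of 0.111 by limma at a difference of 0.66 ± 0.19.

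In liver, Cxcl16 read 1.5, 0.67, 1.41, 1.77 and 0.94 at D0 and 1.48, 1.93, 1.65, 1.37 and 1.80 at D3, 0.39 ± 0.17 higher (95% interval 0.03 to 0.74, adjusted p = 0.371 by limma), and 0.24 higher without mouse 2. Ccl24, an eosinophil attractant, read -1.12, -0.81, -1.83, -1.08 and -2.14 at D0 and -0.32, -1.85, -0.71, -0.19 and -0.39 at D3. It was 0.65, 0.78 and 0.70 higher at D1, D2 and D3 (adjusted p = 1, 0.995 and 0.375). Ccl21a was 0.77 ± 0.44 higher at D3 (adjusted p = 0.50), from 0.47 without mouse 3 to 1.25 without mouse 1. Cxcl9 was 0.66 ± 0.28 higher at D2 (adjusted p = 0.995), with D2 livers at 1.99, 2.89, 2.84, 2.20 and 1.5, and the D3 livers ranged from 1.24 to 2.07. The 4 tested macrophage and monocyte genes had a median D3 difference of 0.43 in liver, all 4 positive and none called by limma, with 2 of 4 at a p under 0.05 before adjustment. For the slope on dose that number was 3 of 4, and with slide as a block the slope of 1 of the 4 was called. Of all liver probes 12.1% had such a p at D3 and 14.8% for the slope. With slide as a block the slope of 2.61% of them was called. Dose differences of the other cell marker lists are not given, and the part of macrophages in the values above was not tested.

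In forestomach, Ccl27a read 1.59, 0.69, 0.59, 1.15 and 1.55 at D0 and 1.81, 1.70, 1.41, 1.71 and 1.6 at D3, 0.53 ± 0.24 higher (95% interval 0.03 to 1.04, adjusted p = 1 by limma). The D3 mice lay close together, and 2 D0 mice were low. Ccl25 was lower at D3 by 0.36 ± 0.23 and Ccl5 by 0.56 ± 0.40 (adjusted p = 1 for both), with 1 of 5 D3 mice above the D0 mean in each. Without mouse 3 the differences were -0.23 and -0.32. In single mice the values of these genes ranged across doses as plotted.

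**Figure D4:**
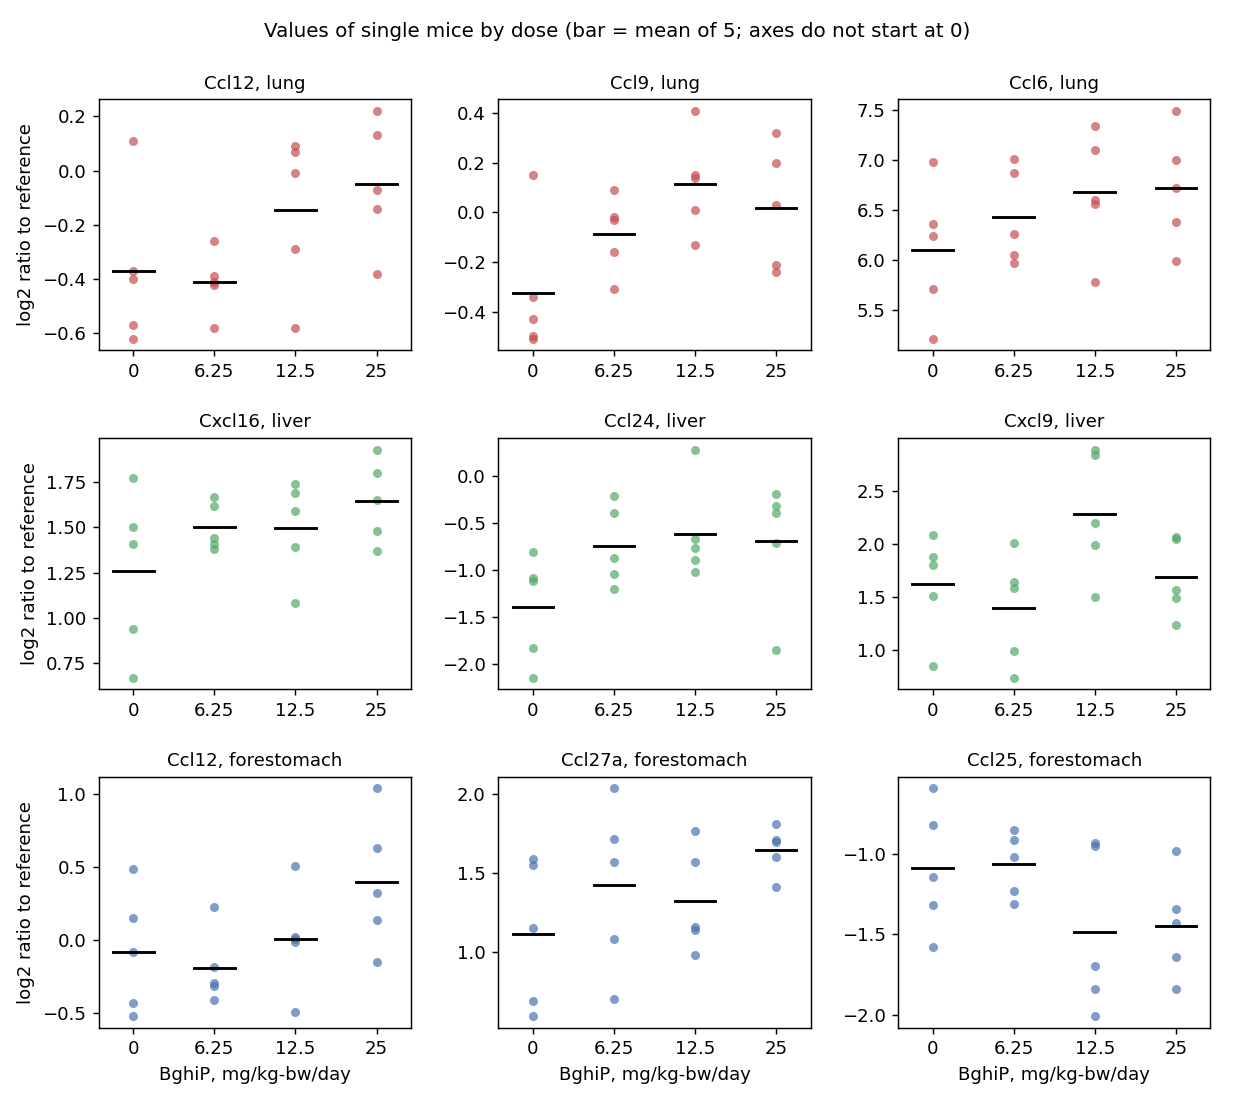
Log2 ratio to reference (vertical axes, which do not start at 0) by dose of BghiP in mg/kg-bw/day (horizontal axes) for 9 pairs of gene and tissue, with 1 point per mouse, 5 mice per dose, and a bar at the mean. Points of D0 and D3 overlap in every panel, as for Ccl24 in liver, where D0 spans -2.14 to -0.81 and D3 spans -1.85 to -0.19.

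The change at D3 was then compared between tissues. For the 3 pairs of tissues 0 of 48 genes were called (0% of 33255 probes each), of which 28, 30 and 22 were tested in both tissues of the pair (lung and liver, lung and forestomach, liver and forestomach). Before adjustment, 0, 1 and 1 of the 48 had a limma p under 0.05 between lung and liver, lung and forestomach, and liver and forestomach, where 2.96%, 2.06% and 4.26% of probes had one. Among genes tested in both tissues it was 0, 0 and 1, where 3.3%, 2.14% and 5.24% of probes tested in both had such a p. The genes with the lowest p were Ccl27a between liver and forestomach (-0.72 ± 0.28, adjusted p = 1 by limma) and Cxcl15 between lung and forestomach (0.86 ± 0.39, adjusted p = 1). The latter was 0.20 without the mixed arrays, which include forestomach mouse 2, the 1 forestomach array of 20 with Cxcl15 well above background. Ccl12, well above background on 0 of 20 liver arrays, gave -0.48 ± 0.26 between liver and forestomach, and -0.22 without those arrays, Ccl27a between lung and forestomach -0.50 ± 0.28, Ccl9 between lung and liver 0.44 ± 0.25 and Cx3cr1 between the same tissues 1.04 ± 0.65 (0.58 with its second probe).

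Partners of the pathway differed between tissues, and none was called at D3 in the fit without slide. Of 33 tested signalling partners, such as the G protein Gnai2, the receptor kinase Grk6 and the motility factor Dock2, 22 were higher and 1 lower in lung than in liver, 18 higher and 2 lower in lung than in forestomach, and 4 higher and 13 lower in liver than in forestomach, where 44.4%, 33.3% and 39.2% of all probes differed. Of 7 tested chemokines and receptors under other symbols, such as Pf4 and Cd74, 5 were higher and 2 lower in lung than in liver, 5 and 1 in lung than in forestomach, and 1 and 2 in liver than in forestomach. Of 10 tested inflammatory partners, such as Tnf, Il1b and Icam1, 6 were higher and 1 lower in lung than in liver, 5 and 0 in lung than in forestomach, and 1 and 2 in liver than in forestomach. Some of these genes entered through 1 tissue alone. Among those tested in both lung and liver, 22 higher and 1 lower in lung were counted for 32 signalling partners, 3 and 2 for 5 genes under other symbols, and 6 and 1 for 8 inflammatory partners, where 48.4% of probes tested in both differed. Among those tested in both lung and forestomach the counts were 13 and 2 of 26, 4 and 1 of 5, and 3 and 0 of 5, where 38.2% of probes did. For liver against forestomach they were 2 and 13 of 26, 1 and 2 of 5, and 1 and 2 of 5, where 45.9% of probes did. At D3 none of the 3 lists had a called gene in any tissue by limma, and before adjustment a p under 0.05 was had by 3 of 33 signalling partners in lung, by 4 of 32 in liver and by 0 of 26 in forestomach, where 4.81%, 12.1% and 1.5% of all probes had one. With slide as a block 1 signalling partner was called in lung at D3.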

How the data were processed

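RNA of lung, liver and forestomach was hybridised to Agilent 2-colour mouse arrays (60 arrays, 20 mice, 5 per dose and tissue), with tissue RNA in Cy5, reference RNA in Cy3 and no dye swap, so that a dye effect does not cancel. The authors deposited Feature Extraction 10.7.3.1 scanner files, which hold median spot intensity, local background intensity, processed intensity and quality flags for 62976 spots. They also deposited a table of log2 ratios made by LOWESS within each array from medians without background subtraction. Control spots (3671) were left out, spots of the same probe were averaged, and 55681 probes remained. Log2 Cy5 over Cy3 was computed from the deposited median intensities, with no background subtraction, and loess within arrays in limma 3.58.1 (R 4.3.3, with the data.table package, version 1.17.8). These values correlated at 0.992 to 0.999 with the deposited log2 ratios, whose column medians were -0.041 to -0.014. Of all values 0.46% were flagged as outliers and left out, and 0 spots were saturated. The number of arrays limits the precision.

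Through unversioned RefSeq accessions 26413 probes (47.4%) received a symbol from the GRCm38.p6 gene table. The scanner header names build mm9, so coordinates are given only for the RefSeq promoters. The filter asked that a probe's Cy5 signal exceed background clearly on 5 or more of the 20 arrays of a tissue, which kept 31022 in lung, 25893 in liver, 25070 in forestomach and 33255 in any tissue. limma fitted dose groups within each tissue, and all groups for comparisons of tissues. Calls needed a Benjamini-Hochberg adjusted p of at most 0.05 and a change of 1.5-fold (no fold for slopes). The study used MAANOVA with residual shuffling, which was not run here, and limma took its place. p-values are 2-sided. SE is the standard error of the fit. Where a probe was not well above background on any array of a group, the fold is a bound: the mean Cy5 signal of the bright group, after loess and Aquantile, against the mean, over arrays, of the higher of the lowest signal well above background and the probe's own.

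Genes named with their values were the leaders of each tissue by the lesser of their differences, the lowest D3 and interaction p-values, and fixed ligand and receptor pairs. Other members were named after their values were seen, and 1 member and 1 marker gene are not reported here by name. Members, gene lists and tests were chosen with earlier results of these data known. The glandular stomach list, the F test of slides, the intervals, the counts over genes tested in both tissues of a pair or in every tissue, the second-brightest probe for named genes and the fits without mixed arrays were added after the data were seen. The same animal number, per the labels, pairs tissues of 1 mouse. Deviations from group means of the same mouse correlated at -0.20 to 0.20 between lung and liver (median 0.05), 0.00 to 0.43 between lung and forestomach (median 0.21) and -0.19 to 0.15 between liver and forestomach (median 0.00). Lung and forestomach arrays of a mouse also shared a slide, so mouse and slide cannot be told apart in their correlation. Dose groups share no mouse. The alternatives were other background corrections, processed and deposited values, Aquantile, other filters, a variance trend, slide and mouse as blocks, other sets of arrays, the second-brightest probe and leaving out each mouse.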

Additional observations from a re-analysis of the deposited data

Results flagged for a closer look

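Among 85 sets of 5 mice, 4 had 1 mouse whose gap to its nearest neighbour was large for the range of the set, where chance marks about 1 set in 20. All 4 were vehicle groups. In liver, Ackr3 of mouse 2 read -1.72 against -2.16 to -2.04 in the other 4 mice, and Cx3cl1 of the same mouse read -3.92 against -4.57 to -4.39. That array had the lowest share of probes well above background among the liver arrays (36.3%), and its part in these values was not tested. In lung, Ccl9 of mouse 2 read 0.15 against -0.51 to -0.34, and Ccr7 of mouse 5 read 4.39 against 2.83 to 3.25.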

How the results depend on the processing

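All counts of called genes stayed within 1.5 times the reported count under every alternative that was run, as did the counts of 0 for dose. The counts ranged from 30 to 42 between lung and liver, 24 to 32 between lung and forestomach, and 17 to 28 between liver and forestomach, and without each mouse in turn from 34 to 38, 25 to 29 and 21 to 25. With mouse number as a replicate block, which pairs the tissues of a mouse, they were 39, 29 and 24. Of 1180 values of named genes under alternatives that kept the brightest probe, 1163 kept their direction and their side of the threshold, 17 lost their call and 0 reversed. With the second-brightest probe the counts were 35, 25 and 20. Of 21 values of named genes with that probe, a check chosen after the data were seen, 13 kept direction and side, Cxcl12 between lung and forestomach reversed (-0.91 in place of 3.78), and 7 lost their call: Ackr2 between lung and liver (0.38) and lung and forestomach (0.23), Cx3cr1 between lung and liver (0.58), Cxcl9 between liver and forestomach (0.21), Ccl19 between lung and forestomach (0.38), and Ccl25 between lung and liver (-0.27) and liver and forestomach (0.25). With the brightest probe, the lost calls not given above were Ccl2 between lung and forestomach with processed signals (-0.33, adjusted p = 0.0881 by limma) and with vehicle arrays alone (-0.59, adjusted p = 0.0935), Ccl11 between these tissues with no filter (-0.84, adjusted p = 0.0638) and with vehicle arrays alone (-0.84, adjusted p = 0.0532), and Cxcr2 between liver and forestomach without mouse 5 (-1.28, adjusted p = 0.0508). The cause was not tested. The share of called genes higher in liver than in forestomach was 39.1%, 50.0% with processed signals and 52.9% among probes above background on all 20 arrays. Processed signals moved the median lung minus forestomach difference of all probes from 0.023 to 0.105, and the stricter filter moved that of lung minus liver from 0.063 to 0.102. In forestomach, where 21.3% to 53.3% of probes were well above background, wide intervals in the fit without slide leave changes of several-fold undetected for the most variable genes.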
